A study of Homo sapiens with 13 samples.

Results

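The very wide active enhancer domains of MDA-MB-231 cells were 943 H3K4me1 regions, out of 88319 H3K4me1 regions in all. They were chosen by 3 features. Each was at least 10000 bp wide, overlapped H3K27ac by 1 bp or more, and kept clear of promoter windows, the 3000-bp stretches centred on the transcription start site (TSS) of the canonical transcript of a protein-coding gene. They made up 3.88% of the 24323 candidate active enhancers, the regions that met the last 2 features at any width, and 17% of their summed length (14.35 of 84.25 Mb). Of the 1117 H3K4me1 regions of at least 10000 bp, 165 others carried H3K27ac but touched a promoter window and 9 others lay outside promoters without H3K27ac. Since H3K4me1 width, H3K27ac overlap and promoter distance selected the domains, these measures are given below only as a description.

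MDA-MB-231 is an established human line from a triple-negative breast tumour of the basal B type, cultured in DMEM with serum, and no sample carried a treatment or genetic change. Chromatin immunoprecipitation and sequencing (ChIP-seq) was performed for H3K4me1, H3K27ac, H3K4me3, RNA polymerase II (Pol II) and CTCF, with 2 libraries each, whereas the p300/CBP immunoprecipitations were pooled into 1 library. Replicates had been merged before peaks were called, and the deposited lists hold positions (hg19) with no height per peak, so depth is unknown and no spread between replicates could be computed. Shares are given with 95% Wilson intervals and rates with exact Poisson intervals, which cover counting error only. Regions are not replicates of the cell line, and no test was made between classes of regions. The promoter windows of the mesenchymal markers VIM, CD44, AXL, FOSL1 and CAV1 all carried H3K27ac. Of 9 luminal and epithelial markers 2 did (ERBB3 and FOXA1), and of 4 haematopoietic markers, including PTPRC, 0 did. The contrast was weaker in the longer gene lists used below. There the mark was at 17 of 22 mesenchymal, 12 of 22 luminal and epithelial and 0 of 20 haematopoietic genes.

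Enhancers are stretches of DNA that raise the transcription of genes at a distance. Their nucleosomes carry H3K4me1, and H3K27ac, which the acetyltransferases p300 and CBP deposit, marks those in use, while H3K4me3 is typical of promoters. Long, heavily acetylated stretches are known near genes that define a cell's identity, and they usually hold several short stretches of open DNA where transcription factors such as AP-1 (FOS and JUN family dimers), TEAD and RUNX proteins bind and recruit p300/CBP.

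The p300/CBP peaks were short, with a median width of 150 bp over the whole list. Many of those in the domains had the AP-1 motif within 150 bp of their centre, which can lie outside the peak itself. Windows of 160 bases around a p300/CBP peak centre are shown for 8 of the widest domains, to let the motif be seen in place. For each domain the window was that whose AP-1 match lay nearest to the peak centre, among windows free of exons. Domains without such a window were passed over, so every window shown holds a match by choice. Among those passed over were the wide domains in the SMURF2 gene body, BCAR3 and CMIP, with 0 p300/CBP peaks each. The sequences are the plus strand of GRCh37, which is hg19, and capitals mark TGACTCA or its reverse complement.
ACTN4, chr19:39174196-39174355: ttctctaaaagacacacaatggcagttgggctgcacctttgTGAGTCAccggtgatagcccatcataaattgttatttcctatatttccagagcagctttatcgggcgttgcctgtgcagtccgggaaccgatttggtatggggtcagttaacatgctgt
CRIM1, chr2:36630971-36631130: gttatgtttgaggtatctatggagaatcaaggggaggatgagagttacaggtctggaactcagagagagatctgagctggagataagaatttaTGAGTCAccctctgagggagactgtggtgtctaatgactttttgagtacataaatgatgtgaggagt
BCL2L1, chr20:30283996-30284155: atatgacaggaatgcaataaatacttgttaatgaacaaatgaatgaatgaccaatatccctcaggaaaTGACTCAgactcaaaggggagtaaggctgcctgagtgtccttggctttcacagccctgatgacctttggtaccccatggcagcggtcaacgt
TRIO, chr5:14190621-14190780: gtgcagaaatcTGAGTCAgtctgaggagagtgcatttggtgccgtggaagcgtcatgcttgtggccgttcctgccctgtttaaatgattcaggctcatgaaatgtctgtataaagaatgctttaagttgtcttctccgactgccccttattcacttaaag
MYOF, chr10:95230921-95231080: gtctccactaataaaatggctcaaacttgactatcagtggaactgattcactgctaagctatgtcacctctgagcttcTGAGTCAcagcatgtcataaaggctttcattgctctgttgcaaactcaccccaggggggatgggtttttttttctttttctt
MIR100HG, chr11:122011396-122011555: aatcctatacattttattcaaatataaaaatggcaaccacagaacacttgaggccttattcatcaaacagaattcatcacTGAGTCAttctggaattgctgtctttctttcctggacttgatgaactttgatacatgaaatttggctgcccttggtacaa
upstream of SMURF2, chr17:62675996-62676155: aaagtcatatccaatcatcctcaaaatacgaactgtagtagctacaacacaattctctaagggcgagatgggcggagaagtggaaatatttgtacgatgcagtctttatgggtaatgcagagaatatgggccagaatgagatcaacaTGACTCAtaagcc
COL13A1, chr10:71579671-71579830: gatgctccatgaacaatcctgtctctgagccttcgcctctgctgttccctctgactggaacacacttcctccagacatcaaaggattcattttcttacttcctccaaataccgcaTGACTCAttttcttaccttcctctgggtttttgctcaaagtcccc

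The match lay 1 bp from the middle of the window in MYOF, 3 bp in MIR100HG, 9 bp in BCL2L1, 16 bp in CRIM1, 36 bp in ACTN4, 38 bp in COL13A1, 66 bp in TRIO and 70 bp upstream of SMURF2. The windows named for ACTN4, CRIM1, BCL2L1, TRIO, MYOF and COL13A1 lay in introns of those genes. That named for MIR100HG, the host transcript of miR-100 and let-7a-2, and that upstream of SMURF2 touched no protein-coding gene.

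A few domains stood apart from the rest. In 3 of the 943, H3K4me3 covered at least 80% of the length. The domain on chromosome 10 at 42389201 to 42402251, 34265 bp from the longest undetermined stretch of the chromosome, was 90.04% under H3K4me3 and 86.6% under Pol II and held 22 p300/CBP peaks, more than any other. The others were on chromosome 2 at 133021851 to 133035701 (96.0% under H3K4me3) and on chromosome 16 at 33949401 to 33961251 (84.8%), both with 0 p300/CBP peaks. Without these 3, the p300/CBP rate over the domains was 0.914 peaks per 10 kb against 0.927 with them. Within 5 Mb of the longest undetermined stretch lay 45 domains, and without these 45 the shares of domains with p300/CBP, Pol II, CTCF and H3K4me3 were 65.5%, 65.6%, 35.1% and 65.7%, against 65.9%, 65.9%, 35.5% and 65.6% over all.

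The domains had a median width of 12700 bp, and the middle 50% lay between 11150 and 16250 bp. Of the 943, 447 were under 12500 bp, 373 were from 12500 to under 20000 bp and 123 were 20000 bp or wider. In steps of 500 bp, the candidate active enhancers numbered 140 and 148 below the limit and 90 and 113 above it, so the number fell at the limit and rose again in the next step. Just inside it, at 10000 bp, were regions in BTBD16, near VCPKMT, near TPM1, in SEPTIN9 and near CEACAM16, with 0, 2, 1, 0 and 1 p300/CBP peaks. Just outside, at 9950 bp, were regions in WDR43, near EIF3D, near GRAMD2B, in ESYT2 and in SHB, with 0, 2, 2, 0 and 0.

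**Figure D1:**
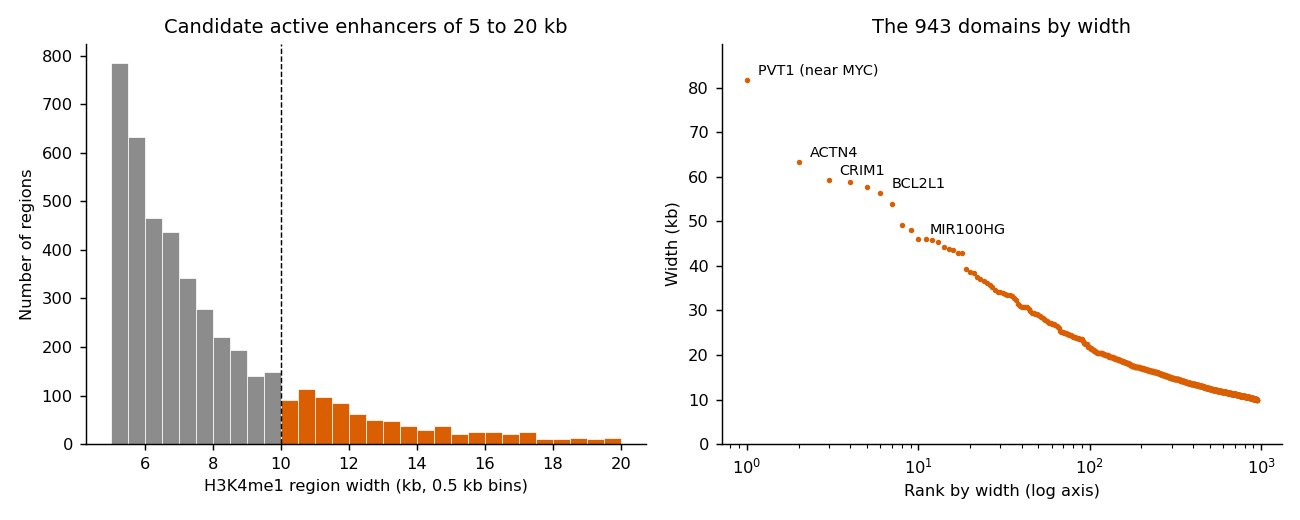
Left, number of candidate active enhancers in bins of 0.5 kb of H3K4me1 width from 5 to 20 kb, with the limit of 10 kb as a dashed line and the domains in orange. Right, width in kb of each of the 943 domains against its rank (log axis); the counts fall with width, with a dip to 90 just above the limit, and the widest domain, in PVT1, reached 81650 bp.

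H3K27ac covered 53.0% of the summed length of the domains, in 2389 regions, with a median of 2 per domain. By domain the covered share ran from 0.930% to 100%, with a median of 53.4% and quartiles of 35.5% and 71.1%, and 518 domains (54.9%) were covered over at least 50% of their length. The longest unbroken H3K27ac stretch in a domain had a median of 4750 bp and reached 29000 bp, in BCL2L1. That domain lay 828731 bp from the longest undetermined stretch of its chromosome and was among the 45 within 5 Mb. Acetylation was lowest near the borders. It covered 26.8% and 28.3% of the outermost twentieths of the domains and from 54.8% to 61.8% of the bins in the middle 60%. Outside, it covered 13.1% and 13.5% of the flanking kb and 15.6% and 16.5% of the kb 9 to 10 kb away. Acetylation thus lay mostly in the interior of the domains.

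**Figure D2:**
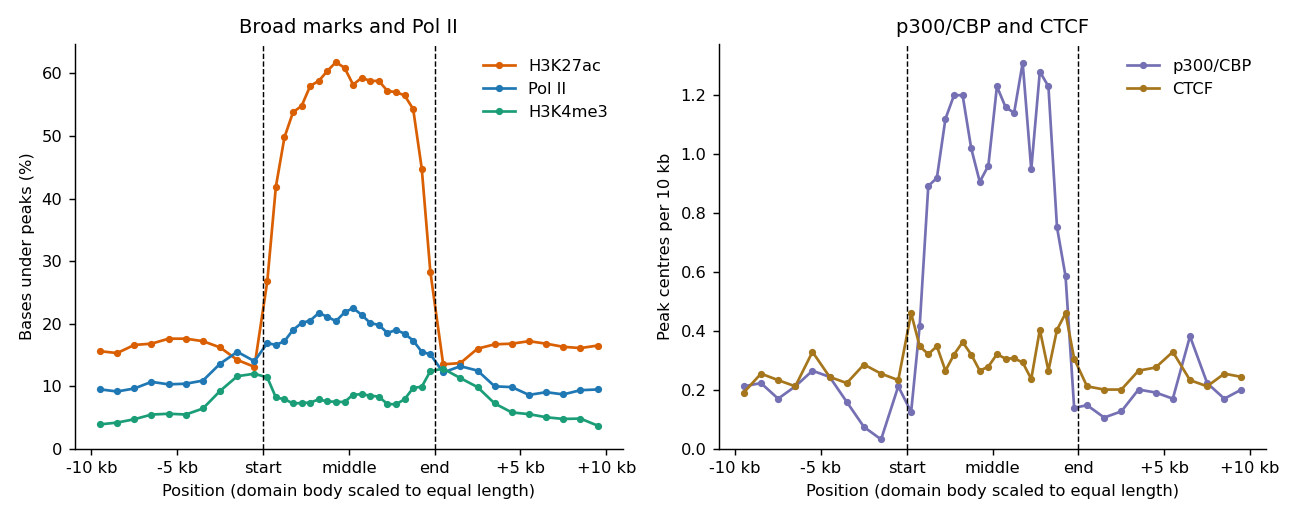
Peaks across the 943 domains, each scaled to the same length in 20 bins, with 10 kb of flank in 1-kb bins; dashed lines mark the borders. Left, percent of bases under H3K27ac, Pol II and H3K4me3 peaks; right, p300/CBP and CTCF peak centres per 10 kb. H3K27ac and p300/CBP are highest inside, and H3K4me3 is highest at the borders.

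At least 1 p300/CBP peak was present in 621 domains, or 65.9% (62.8% to 68.8%), against 20.6% of all candidate active enhancers and 42.6% (41.0% to 44.3%) of the 3644 that were 5 to under 10 kb wide. Longer regions have more room for a peak. The domains held 0.927 p300/CBP peaks per 10 kb (0.878 to 0.979), the regions of 5 to under 10 kb 0.916 (0.879 to 0.955), and those under 5 kb 0.756 (0.731 to 0.782). The intervals of the wider classes overlapped. Wide regions that touched a promoter held fewer, 0.517 per 10 kb (0.429 to 0.619). Among the domains, 322 held no p300/CBP peak, 250 held 1, 189 held 2 and 182 held 3 or more. Apart from the domain on chromosome 10 described above, the most were 9 in PVT1 near MYC, 8 upstream of SMURF2, 8 upstream of PTK2, which encodes focal adhesion kinase, 7 upstream of F3, the tissue factor gene, and 7 upstream of DUSP5, an ERK phosphatase gene.

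The p300/CBP peaks sat on the acetylated part of the domains. Of 1329 peak centres in domains, 1277 (96.1%, 94.9% to 97.0%) lay in bases under H3K27ac, which made up 53.0% of the length. That is 1.68 centres per 10 kb of acetylated bases (1.59 to 1.77), against 0.0771 per 10 kb of other bases (0.0576 to 0.101). In regions of 5 to under 10 kb the values were 1.76 (1.68 to 1.83) and 0.162 (0.141 to 0.186). More than 2 kb from the borders the domains held 1.08 centres per 10 kb (1.02 to 1.14), and in the 2 kb inside the borders 0.493 (0.425 to 0.569). The rate was 0.125 (0.0916 to 0.166) in the 2 kb outside and 0.201 (0.179 to 0.225) at 2 to 10 kb outside. H3K4me1 calls less than 1000 bp apart had been merged, so no H3K4me1 peak could lie in the kb next to a border. H3K27ac covered 60.5% of the length of the domains with a p300/CBP peak and 35.9% of that of the domains without. Domains that touched no protein-coding gene held 1.38 p300/CBP peaks per 10 kb (1.26 to 1.51) and those inside a gene 0.771 (0.717 to 0.828), and regions of 5 to under 10 kb showed the same order, with 1.32 (1.24 to 1.40) and 0.720 (0.678 to 0.764).

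**Figure D3:**
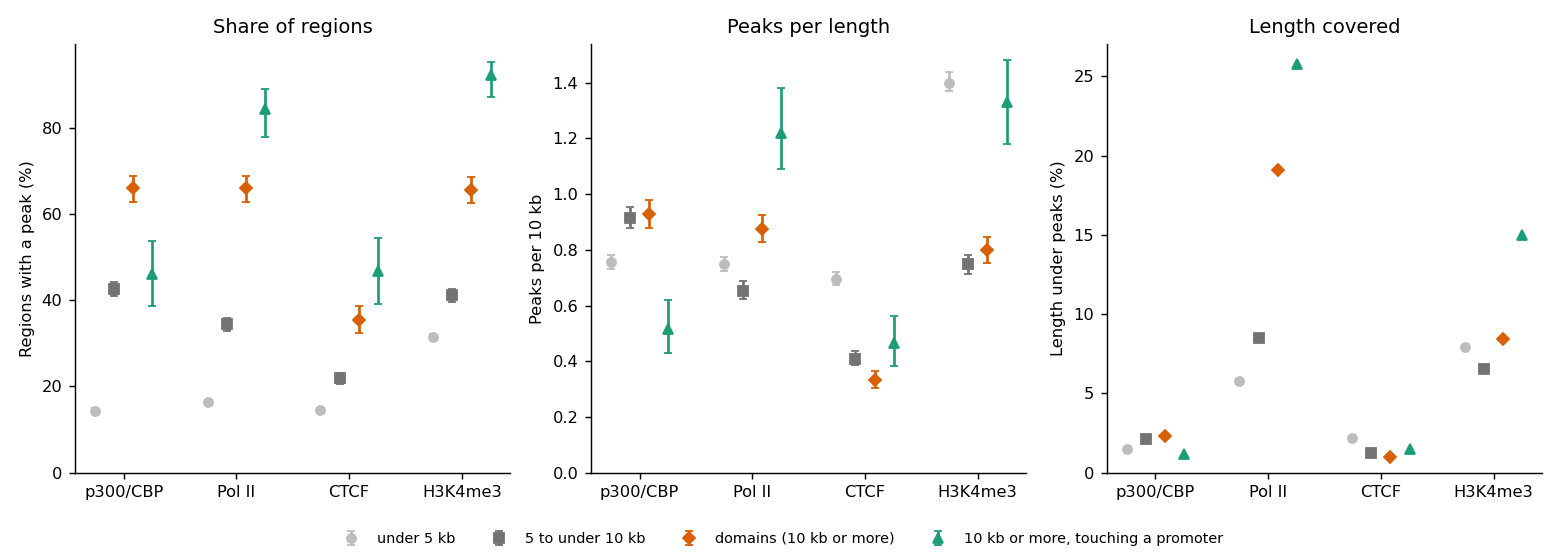
Left, percent of regions with at least 1 peak, with 95% Wilson intervals; middle, peaks per 10 kb, with exact 95% Poisson intervals; right, percent of summed length under peaks, for candidate active enhancers under 5 kb (n = 19736), of 5 to under 10 kb (n = 3644), the domains (n = 943) and regions of 10 kb or more with H3K27ac that touch a promoter window (n = 165). The domains lead the other non-promoter classes in the share with a peak. In peaks per 10 kb, counted by a shared stretch of 1 bp, their interval lies above those of both narrower classes only for Pol II.

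The AP-1 motif was searched as TGACTCA on both strands, in 300 bp centred on each p300/CBP peak. It was found at 559 of 1329 centres in domains, or 42.1% (39.4% to 44.7%), and 79 of these windows held more than 1 match. In windows of the same length tiled along the domains away from p300/CBP peaks, it was found in 8.10% (7.74% to 8.47%) of the 21411 that lay wholly under H3K27ac and in 5.03% (4.74% to 5.34%) of the 20305 without H3K27ac. CTCF centres in the domains held it in 8.03% (5.91% to 10.8%). Matches were concentrated in the 50 bp on either side of the centre, with 13.6 and 12.3 matches per 100 centres, and fell to between 0.752 and 1.81 beyond 150 bp. Of the 620 domains with a p300/CBP centre, 392 (63.2%, 59.4% to 66.9%) had an AP-1 match at 1 or more of them. A domain with more centres has more room for a match, and no such share was computed for narrower regions.

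The AP-1 share did not separate the domains from narrower enhancers, where it was 42.9% (40.9% to 45.0%) of centres at 5 to under 10 kb and 45.7% (44% to 47.4%) under 5 kb. At p300/CBP centres outside candidate active enhancers and promoter windows it was 12.3% (11.6% to 13.1%). The TEAD motif, GGAATG, was found at 33.4% (30.9% to 36.0%) of centres in domains, against 17.8% and 16.4% of domain tiles with and without H3K27ac. It was nearly as frequent, at 30.8% (29.7% to 31.9%), at p300/CBP centres outside candidate active enhancers and promoter windows. At narrower enhancers it was found at 34.3% of centres at 5 to under 10 kb and 33.4% under 5 kb. The RUNX motif, TGTGGTT, was found at 15.3% (13.4% to 17.3%) of centres in domains, against 5.53% and 5.26% of the tiles. At the centres outside enhancers and promoter windows it was found at 6.28% (5.73% to 6.88%). The CRE motif, TGACGTCA, was found at 6 centres, and the ETS motif, CCGGAAGT, at 7. None of the 5 motifs contains another, and a match describes the letters only, not a bound site. The median GC content was 45.7% in the centre windows of the domains and 47.0% and 46.0% in the tiles. It was 37.7% at the centres outside enhancers and promoter windows.

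**Figure D4:**
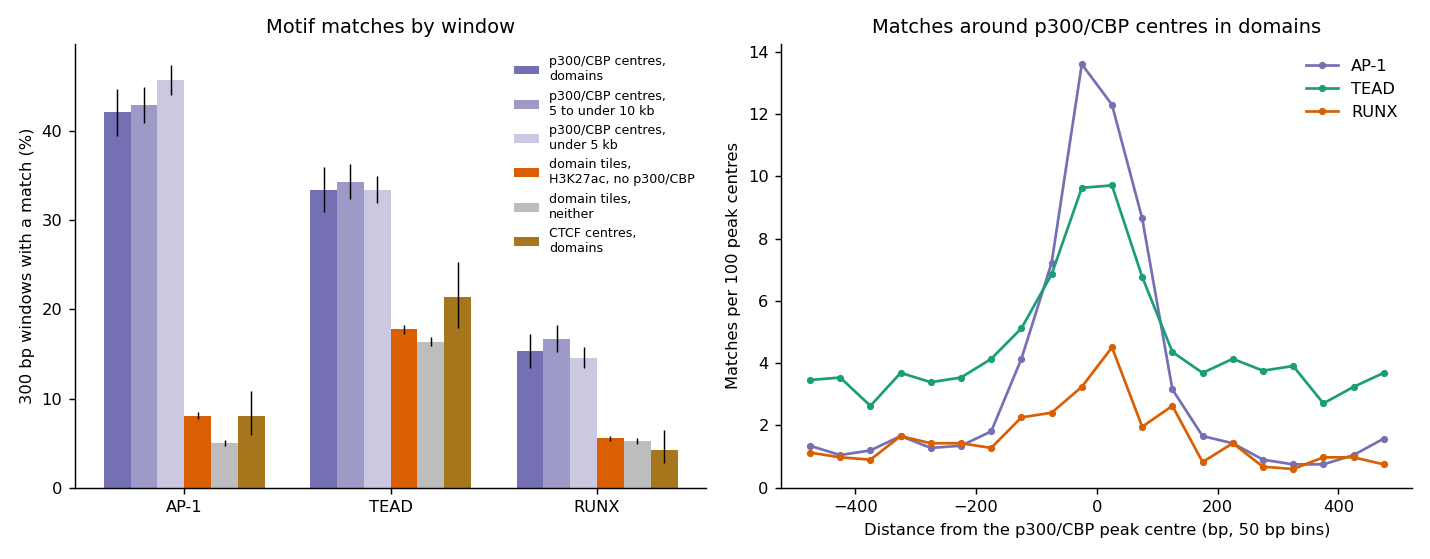
Left, percent of 300-bp windows with a match to the AP-1, TEAD or RUNX motif, by kind of window, with 95% Wilson intervals; right, matches per 100 p300/CBP peak centres in domains (n = 1329) in 50-bp bins of distance from the centre. AP-1 matches stand at 42.1% of centres in domains against 8.10% and 5.03% of domain tiles, and all 3 motifs are most frequent near the centre.

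Pol II was present in 621 domains, or 65.9% (62.8% to 68.8%), against 21.0% of all candidate active enhancers and 34.4% (32.8% to 35.9%) at 5 to under 10 kb. Per length the domains also held more Pol II peaks than the narrower regions, 0.874 per 10 kb (0.827 to 0.924) against 0.654 (0.622 to 0.687) at 5 to under 10 kb and 0.750 (0.725 to 0.776) under 5 kb. Pol II peaks covered 19.1% of the length of the domains, 8.52% at 5 to under 10 kb and 5.76% under 5 kb. Among the domains this rose with width, from 11.7% under 12500 bp to 17.8% from 12500 to under 20000 bp and 31.1% at 20000 bp and wider. By domain the share was 0 at the first quartile, 4.79% at the median and 18.3% at the third quartile.

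Pol II covered a larger share of the domains next to promoters than of the others. The 170 domains within 5 kb of a canonical TSS had 39.3% of their length under Pol II, and the 773 farther away had 14.3%, which was still above the 6.57% of regions of 5 to under 10 kb at that distance. Pol II covered at least 50% of 105 domains (11.1%), against 5.46% at 5 to under 10 kb and 4.89% of all candidate active enhancers. It covered 28 domains in full (2.97%, 2.06% to 4.26%), against 1.84% and 2.17%, the latter within that interval. In 23 of these 28 the same peak also touched a canonical promoter window. Among all 621 domains with Pol II, 84 (13.5%, 11.1% to 16.4%) held a peak that touched one. The most bases under Pol II were in ACTN4 (98.3% of the domain), CRIM1 (97.2%), BCL2L1 (100%), SMURF2 (94.99%), BCAR3 (96.4%) and MIR100HG (96.2%). Elongating and enhancer-bound polymerase cannot be told apart in these lists. TRIO, by contrast, had 0.306% of a domain of 49100 bp under Pol II.

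H3K4me3 was present in 619 domains, or 65.6% (62.6% to 68.6%), against 34.2% of all candidate active enhancers and 41.1% (39.5% to 42.7%) at 5 to under 10 kb. It covered 8.42% of the length of the domains, 6.53% at 5 to under 10 kb and 7.91% under 5 kb. Per 10 kb the domains held 0.798 H3K4me3 peaks (0.752 to 0.845), against 0.748 (0.714 to 0.783) at 5 to under 10 kb, where the intervals overlapped, and 1.40 (1.37 to 1.44) under 5 kb, which was higher. These rates count every peak that shared 1 bp with a region, so peaks that crossed a border counted in full. By overlap there were 1145 peaks in domains and 1826 at 5 to under 10 kb, but by peak centre 948 and 1418. Per length the domains stood higher than the regions of 5 to under 10 kb by either count. Peak centres were not counted under 5 kb, so the place of that class may depend on the way of counting. The peaks in domains had a median width of 750 bp, against 1150 bp over the whole list, and 98.4% of their centres lay under H3K27ac. A TSS of another annotated transcript, of any gene type, lay inside 268 domains, or 28.4% (25.6% to 31.4%), against 15.7% at 5 to under 10 kb. H3K4me3 was present in 206 of these 268 (76.9%, 71.5% to 81.5%) and in 413 of the 675 domains with no annotated TSS (61.2%, 57.5% to 64.8%).

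Apart from the 3 domains of at least 80% described above, the domains without an annotated TSS that had the most bases under H3K4me3 were in MYOF, upstream of KLF14 and in BCL9L. MYOF encodes myoferlin, a membrane repair protein, and 32.8% of its domain of 48000 bp was under 11 H3K4me3 peaks. The domain of 29950 bp upstream of KLF14, which overlapped the long non-coding RNA gene LINC-PINT, was 41.4% under H3K4me3 and wholly under Pol II. That in BCL9L, a Wnt pathway co-activator gene, was 76.9% under H3K4me3 and began 1785 bp from the TSS.

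CTCF, which binds insulators and the anchors of chromatin loops, was present in 335 domains, or 35.5% (32.5% to 38.6%), against 16.4% of all candidate active enhancers and 21.9% (20.6% to 23.2%) at 5 to under 10 kb. Per length it was sparser. The domains held 0.334 CTCF peaks per 10 kb (0.305 to 0.365), against 0.410 (0.385 to 0.436) at 5 to under 10 kb and 0.697 (0.673 to 0.721) under 5 kb. Within the domains the rate was 0.382 (0.329 to 0.440) under 12500 bp and 0.221 (0.176 to 0.274) at 20000 bp and wider. CTCF centres stood at 0.400 per 10 kb (0.339 to 0.470) in the 2 kb inside the borders and at 0.304 (0.272 to 0.339) farther inside. Outside, they stood at 0.225 (0.180 to 0.279) in the nearest 2 kb and at 0.249 (0.225 to 0.276) from 2 to 10 kb. The first 2 intervals touched at 0.339. Of the CTCF centres in domains, 69.1% (64.8% to 73.1%) lay in acetylated bases.

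All of p300/CBP, Pol II, CTCF and H3K4me3 were present in 144 domains (15.3%, 13.1% to 17.7%). The share was 2.72% at 5 to under 10 kb and 1.30% of all candidate active enhancers, where regions have less room for peaks. None of these 4 was present in 60 domains (6.36%, 4.97% to 8.10%), against 22.5% at 5 to under 10 kb and 41.0% of all. The widest with none were in IQSEC1 (18000 bp), NAV1 (15650 bp), PKP4 (15550 bp), EML1 (15500 bp) and PACS1 (15300 bp), all within the gene. H3K27ac covered 20.3%, 17.3%, 24.1%, 16.5% and 38.9% of them, less than the median domain in each. The IQSEC1 domain held 1 annotated TSS of another IQSEC1 transcript.

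Most domains lay in genes. The whole domain was inside a protein-coding gene body in 620 cases, or 65.7% (62.7% to 68.7%), against 52.5% of all candidate active enhancers and 60.6% (59.0% to 62.2%) at 5 to under 10 kb. Intron 1 of the host gene held 191 domains (20.3%), and 246 (26.1%) touched no protein-coding gene, of which 83 overlapped a named long non-coding RNA gene. The host genes were long, with a median of 126730 bp. The distance to the nearest canonical TSS had a median of 32144 bp, and 183 domains (19.4%) were over 100 kb from one.

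A minority of the domains lay close to a promoter, no nearer than the selection allowed. Within 5 kb of a canonical TSS were 170 domains, or 18.0% (15.7% to 20.6%), against 12% (11% to 13.1%) at 5 to under 10 kb, and 153 of the 170 (90%, 84.6% to 93.7%) lay downstream of that TSS, on the transcribed side. At 5 to under 10 kb the downstream share was 80.4% (76.4% to 83.8%). An H3K4me3 peak lay within 1 kb of at least 1 border in 153 of these 170 domains and in 111 of the 773 farther away (14.4%, 12.1% to 17%). Across all domains H3K4me3 covered 12% and 12.8% of the kb just outside the borders and 3.90% and 3.70% of the kb 9 to 10 kb away. The domains close to a TSS held fewer p300/CBP peaks, 0.583 per 10 kb (0.497 to 0.680) against 1.01 (0.954 to 1.07) in the others.

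The 12 widest domains lay at 11 genes. That of 81650 bp was in PVT1, a long non-coding RNA gene, on chromosome 8 at 128852001 to 128933651, 103524 bp downstream of the TSS of the oncogene MYC. It held 15 H3K27ac regions over 49.4% of its length, 9 p300/CBP peaks, 9 H3K4me3 peaks and 0 CTCF peaks. Inside it lay 4 annotated TSSs of PVT1 transcripts. MYC was the nearest canonical TSS of 5 domains, which spanned 161500 bp in sum and held 20 p300/CBP peaks.

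ACTN4, which encodes the actin cross-linker alpha-actinin 4, held 63250 bp on chromosome 19 at 39142501 to 39205751, 80.5% under H3K27ac, with 5 p300/CBP peaks. CRIM1, a membrane protein gene that modulates BMP ligands, held 59250 bp on chromosome 2 at 36586901 to 36646151, 42.9% under H3K27ac, with 6 p300/CBP peaks. BCL2L1, the gene of the anti-apoptotic protein BCL-XL, held 56300 bp on chromosome 20 at 30248301 to 30304601, 90.8% under H3K27ac, with 6. COL13A1, a transmembrane collagen gene, held 45800 bp, 56.3% under H3K27ac, with 3. All 4 lay downstream of the gene's canonical TSS, with the nearer border 4212, 3980, 6071 and 3739 bp from it. TSSs of other transcripts, of any gene type, lay inside the domains of ACTN4 (2), BCL2L1 (1) and COL13A1 (2), but not that of CRIM1.

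Broad H3K4me1 and Pol II did not always go with acetylation or p300/CBP. SMURF2, which encodes a ubiquitin ligase of SMAD proteins, had a domain on each side of its promoter. That in the gene body, of 58850 bp, was 94.99% under Pol II and 19.5% under H3K27ac and held 0 p300/CBP peaks. That upstream, of 45950 bp, was 20.1% under Pol II and 70.3% under H3K27ac and held 8. BCAR3, an adaptor of integrin signalling, had 57800 bp with 96.4% under Pol II, 33.4% under H3K27ac and 0 p300/CBP peaks. CMIP had 53850 bp with 17 Pol II peaks, 22.7% under H3K27ac and 0 p300/CBP peaks. TRIO, which encodes an exchange factor of small GTPases, had 49100 bp in intron 1, 30.9% under H3K27ac, with 3 p300/CBP peaks. TSSs of other transcripts lay inside the domains of BCAR3 (5) and TRIO (1), but not those of SMURF2 and CMIP.

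**Figure D5:**
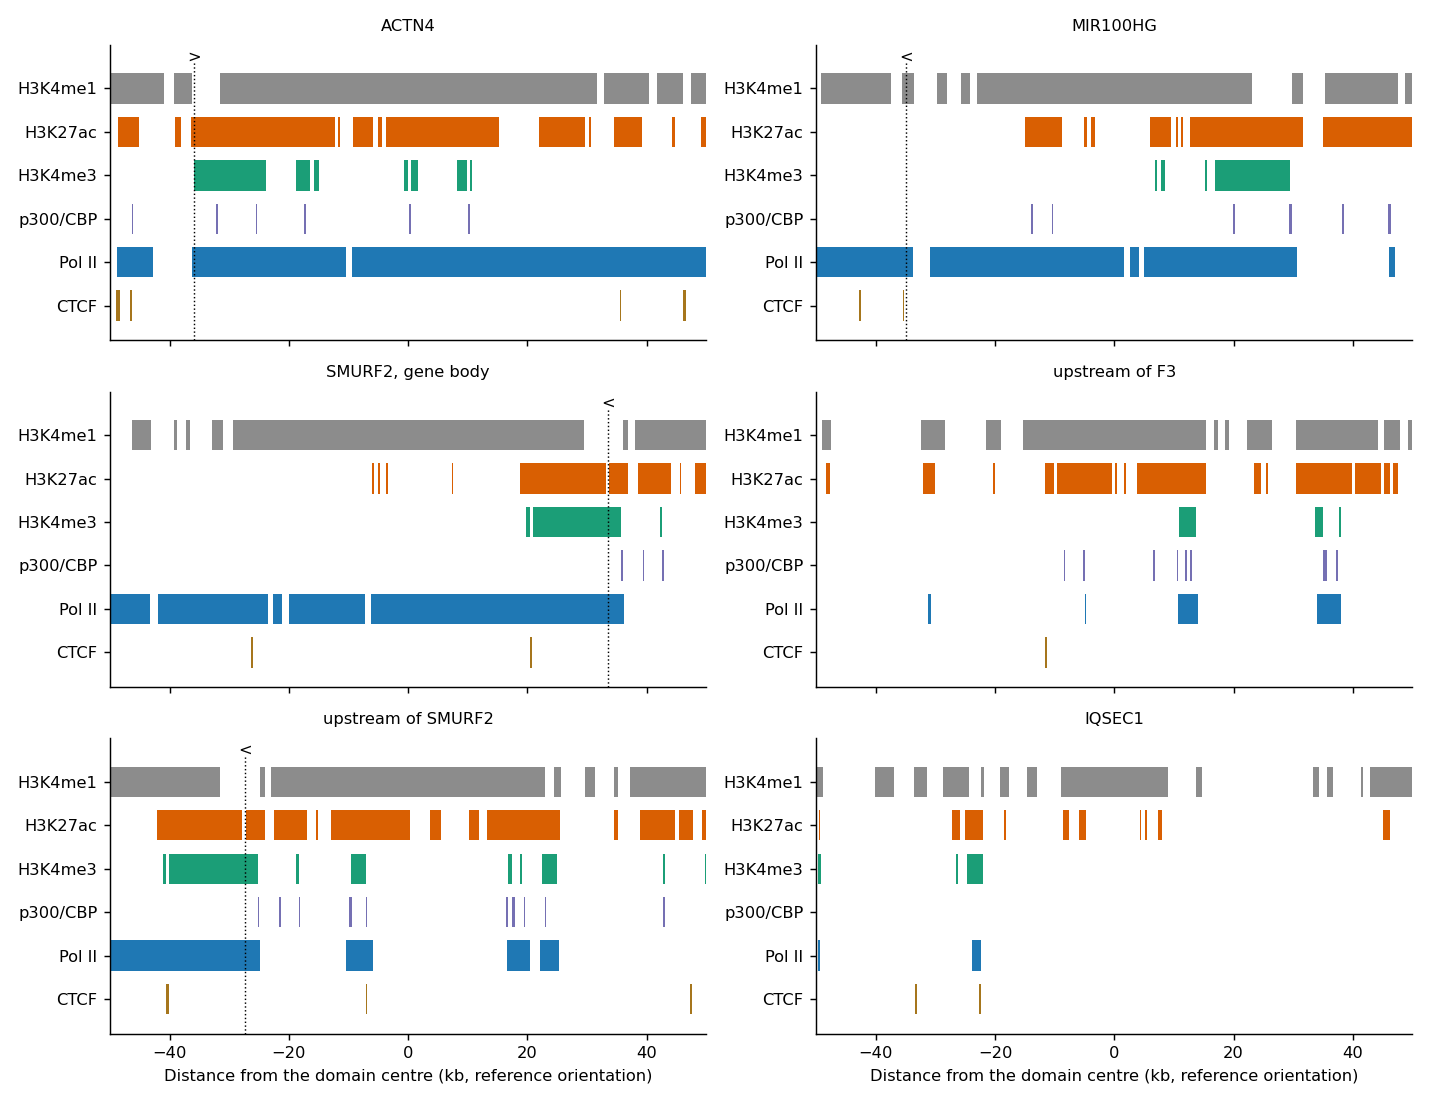
Peaks of the 6 lists (bars) within 50 kb of the centre of 6 domains: ACTN4, the SMURF2 gene body, upstream of SMURF2, MIR100HG, upstream of F3, and IQSEC1, the widest with none of p300/CBP, Pol II, CTCF or H3K4me3. The x axis is the distance in kb from the domain's centre in the orientation of the reference, bars under 0.25 kb are drawn at that width, and dotted lines are canonical TSSs with < or > for the direction of transcription. Pol II covers 98.3% of the ACTN4 domain and 94.99% of the domain in the SMURF2 gene body, against 20.1% upstream of SMURF2 and 11.9% upstream of F3, where p300/CBP peaks are most numerous.

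Neighbouring domains formed chains. With gaps under 50 kb, 342 of the 943 domains fell into 136 chains of 2 or more, and 601 stood alone. The longest chain held 10 domains over 298950 bp, all in EXT1, a heparan sulfate polymerase gene on chromosome 8, with 257300 bp of domain and 14 p300/CBP peaks. In DST, which encodes the cytoskeletal linker dystonin, 6 domains covered 136950 of 225850 bp and held 10 p300/CBP peaks. In BCAR3, 5 domains covered 136050 of 183900 bp and held 9. The domains took their names from 705 genes, of which 149 named 2 or more.

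A domain lay in the body of, or within 100 kb of the TSS of, 1663 of 19894 protein-coding genes, or 8.36%, and of 1285 of the 12218 genes with H3K27ac at the promoter window (10.5%, 9.99% to 11.1%). The lists that follow were compared with these shares. Long genes have more room for a domain, and the median length was 27.6 kb over all genes and 33.3 kb over those with H3K27ac. No test was made of any list.

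Of 21 genes of the TGF-beta pathway, which controls growth arrest and epithelial to mesenchymal change, 10 had a domain (47.6%, 28.3% to 67.6%; median gene length 80.6 kb). Beside SMURF2, these included SMAD3, the signal transducer, with 5 domains, the widest 42850 bp in intron 1 with 4 p300/CBP peaks. The ligand gene TGFB2 held 29250 bp in intron 1 with 1 p300/CBP peak and 0 Pol II peaks. A domain of 13750 bp lay 35261 bp from the TSS of LTBP2, a matrix protein gene whose own promoter window carried no H3K27ac.

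YAP/TAZ and TEAD genes, the output of the Hippo pathway, had a domain in 8 of 20 (40.0%, 21.9% to 61.3%; median length 70.7 kb). F3 had 3 domains, the widest 30700 bp at 53936 bp upstream of its TSS, 74.1% under H3K27ac and with 7 p300/CBP peaks. TEAD1, a DNA-binding partner of YAP, held 20600 bp. WWTR1, which encodes TAZ, held 19900 bp with 3 p300/CBP peaks, and NT5E, the CD73 gene, held 17950 bp, 91.4% under H3K27ac and 92.2% under Pol II.

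Of 30 genes of the actin cytoskeleton and focal adhesions, 12 had a domain (40.0%, 24.6% to 57.7%; median length 47.6 kb). After ACTN4, the widest were 35300 bp in intron 1 of MYH9, a non-muscle myosin gene, with 3 p300/CBP peaks, and 34000 bp upstream of PTK2 with 8. FLNA held 12650 bp, the 1 domain on chromosome X, which was wholly under Pol II and had 0 p300/CBP peaks.

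In the EGFR, RAS and MAPK list 9 of 25 genes had a domain (36.0%, 20.2% to 55.5%; median length 23.6 kb). SPRED2, a RAS inhibitor gene, held 36650 bp in intron 1 with 3 p300/CBP peaks. EGFR, the receptor, held 4 domains in its body, the widest 30750 bp in intron 1, 65.4% under H3K27ac with 3 p300/CBP and 7 Pol II peaks. DUSP5 had 29050 bp with 7 p300/CBP peaks, 76315 bp from its TSS. The widest near DUSP1, another MAPK phosphatase gene, was 27850 bp in an intron of ERGIC1, 75003 bp from the DUSP1 TSS.

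Integrin and laminin genes had a domain in 7 of 21 (33.3%, 17.2% to 54.6%; median length 85.1 kb). A domain of 31100 bp in SAP30BP lay 12339 bp from the TSS of ITGB4 and was 90.03% under H3K27ac with 6 p300/CBP peaks. ITGA6 and ITGA3, alpha subunits of laminin receptors, held 26850 and 16150 bp, and LAMA5, a laminin chain gene, held 15950 bp, with the nearer border 2087, 2277 and 1518 bp from the TSS.

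The remaining lists had fewer. Of 22 mesenchymal genes 4 had a domain (18.2%, 7.31% to 38.5%), of which CD44, a hyaluronan receptor gene, held 25050 bp, and the others, COL1A1, TGFBI and SPARC, had 11800, 11500 and 11000 bp outside their bodies. The widest domain linked to COL1A1 lay in TMEM92, 59259 bp from the COL1A1 TSS, and that of SPARC in ATOX1, at 51275 bp. Of 22 luminal and epithelial genes 2 had a domain (9.09%, 2.53% to 27.8%), GRHL2 and ELF3. The promoter window of GRHL2 carried no H3K27ac, and its domain lay 36717 bp from the TSS. That of ELF3 lay 94486 bp from the ELF3 TSS and held 0 p300/CBP peaks. Haematopoietic genes had 2 of 20 (10.0%, 2.79% to 30.1%), near CD34 and CSF1R, whose promoter windows carried no H3K27ac, and neuronal genes 1 of 18 (5.56%, 0.988% to 25.8%), SNAP25. Of the 14 genes of the AP-1 family 1 was linked to domains (7.14%, 1.27% to 31.5%). This was FOSL2, which encodes Fra-2, and the wider of its 2 domains had 18100 bp with 93.7% under Pol II, although all 14 promoter windows carried H3K27ac and their median gene length was 9.27 kb.

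In all, 20 annotated miRNA genes lay wholly inside 19 domains. MIR100 and MIRLET7A2 lay in the same domain of 46050 bp on chromosome 11, at 122022937 to 122023016 and 122017229 to 122017301 on the minus strand, in the MIR100HG transcript. It was 46.9% under H3K27ac and 96.2% under Pol II and held 3 p300/CBP peaks. MIR30A lay in a domain of 34600 bp on chromosome 6, at 72113254 to 72113324 on the minus strand. The mature sequences, from RefSeq on GRCh38.p14, are shown because they identify the products, with the seed (bases 2 to 8) in capitals, and the 3 seeds differ.
miR-100-5p: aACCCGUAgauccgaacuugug
let-7a-5p: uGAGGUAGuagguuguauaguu
miR-30a-5p: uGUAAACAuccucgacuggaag

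The domains were spread unevenly over the chromosomes. They numbered 77.1 per 100 Mb on chromosome 17, 65.5 on chromosome 20 and 60.2 on chromosome 10, but 6.39 on chromosome 4 and 0.662 on chromosome X. As a share of the candidate active enhancers of the same chromosome, they were 5.66% (4.60% to 6.94%) on chromosome 5, 5.56% on chromosome 10 and 5.54% on chromosome 20, against 1.05% (0.604% to 1.83%) on chromosome 4 and 0.265% (0.0468% to 1.49%) on chromosome X, where 1 of 377 was a domain. Copy number in this aneuploid line was not analysed here, and its part in these shares was not tested.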

How the data were processed

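Chromatin immunoprecipitation and sequencing had been performed on untreated MDA-MB-231 cells for H3K4me1, H3K27ac, H3K4me3, Pol II and CTCF (2 libraries each) and for p300/CBP (1 library), and the 2 input libraries were not analysed here. According to the methods of the study the authors aligned reads to hg19 with BWA-backtrack, whereas the submitters' processing notes name Bowtie2. Reads were processed with PASHA, replicates were merged, and peaks were called by thresholding in the Integrated Genome Browser, which merged stretches closer than 1000 bp in H3K4me1, 800 bp in Pol II, 500 bp in H3K27ac and H3K4me3 and 50 bp in p300/CBP and CTCF. Widths therefore depend on these settings. The deposited lists hold start and end positions with no value per peak, starts counted from 1 and the end being the first base after the peak, and coordinates are printed as listed. The lists do not give the depth of a sample, and the intervals cover counting error only.

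Positions were compared in Python 3.11.15 with NumPy 2.4.6, pandas 2.3.3 and SciPy 1.17.1, and figures drawn with matplotlib 3.10.9. Genes and TSSs came from GENCODE release 44 on GRCh37, and a shared stretch of 1 bp counted as overlap. Sequences were read from GRCh37, and motifs were exact matches on both strands. Interval code was tested on simulated data. No test was planned or made, since regions are not replicates and replicates had been merged. Domains were named by the gene that holds them, otherwise by the nearest canonical TSS (or by the long non-coding RNA for PVT1 and MIR100HG). Those named were the 12 widest, the 6 with the most p300/CBP peaks, the most bases under Pol II or, without an annotated TSS, under H3K4me3, the 5 widest with none of the 4 factors, the 5 on each side of the width limit, the 3 longest chains and up to 4 genes per list. The 3 domains mostly under H3K4me3, FLNA and the printed miRNAs were named after their values had been seen. The members and the gene lists were chosen with earlier results of these data known. Results for a few genes that these rules select are not reported here.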

Additional observations from a re-analysis of the deposited data

How the results depend on the processing

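No paired analysis was possible because each deposited list holds merged replicates. Leaving out a replicate was likewise not possible, and without a value per peak a stricter threshold could not be applied. The 943 domains became 518 when H3K27ac had to cover at least 50% of the region, 615 with the TSSs of all basic transcripts, 294 at 15000 bp or wider, 1645 at 8000 bp or wider, and 1703 when H3K4me1 peaks less than 2000 bp apart were joined. The median H3K27ac cover, 53.4%, became 69.2% with the 50% rule and 40.4% on joining. The share inside a gene, 65.7%, became 58.1% with the 50% rule, 68.9% with all TSSs and 72.8% at 15000 bp. The share with p300/CBP, 65.9%, became 84.4% with the 50% rule, 77.2% at 15000 bp, 59.4% at 8000 bp, 58.3% on joining, 56.6% with wide peaks only (those not narrower than their list's median) and 62.4% without the peaks near undetermined stretches. Pol II, 65.9%, became 78.6%, 61.3% (all TSSs), 78.9%, 56.0%, 56.3% and, with wide peaks only, 45.4%. CTCF, 35.5%, became 42.9% at 15000 bp, 30.7% at 8000 bp and 24.5% with wide peaks only. H3K4me3, 65.6%, became 72.0% with the 50% rule, 59.7% with all TSSs, 79.9% at 15000 bp, 57.1% at 8000 bp, 60.8% on joining, 57.8% by peak centre and 37.6% with wide peaks only. In 2 alternatives chosen after seeing the data, leaving out the 170 domains within 5 kb of a canonical TSS gave 70.4% with p300/CBP and 59.1% with H3K4me3, and leaving out those near undetermined stretches moved no share beyond its interval. In all, 20 of the 54 values, including these last shares, stayed within the interval of the main value. None of the counts of domains stayed within 1.5 times the main count. With wide peaks only, the shares at 5 to under 10 kb were 33.3% for p300/CBP, 17.8% for Pol II, 15.6% for CTCF and 19% for H3K4me3, each below that of the domains. Why the values moved was not tested.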
